A study of Mus musculus with 12 samples.

Results

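The genes described are 8 regulators of the trophectoderm, the outer layer of the blastocyst that forms the placenta: Cdx2, Elf5, Tfap2c, Gata3, Hand1, Tead4, Rhox6 and Rhox9. They were chosen by name, with earlier results of these data known, and every probe set annotated to just 1 of these symbols was taken. That gave 14 probe sets, out of 34958 probe sets with a single symbol that cover 18194 named genes. A probe set is a group of short array probes against the same transcript.

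The cells were mouse embryonic stem cells without feeder cells, kept on gelatin in medium with 15% fetal bovine serum and 1000 U/ml Lif, the cytokine that maintains self-renewal. The 4 groups were Tcf3-/- cells with recombinant Wnt3a (50 ng/ml for 24 h), Tcf3-/- cells in control medium, Tcf3+/+ cells with the same Wnt3a treatment, and Tcf3+/+ cells in control medium. Each group had 3 Affymetrix arrays. Tcf3 is the older name of Tcf7l1, a DNA-binding protein of the Tcf/Lef family, and Wnt3a is a secreted ligand that stabilises its partner beta-catenin. Tcf3-/- cells are called knockout and Tcf3+/+ cells wild type below. The labels give no name for either line, no number of clones and no source culture for the replicates, and the spread behind each p-value may therefore be technical.

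In the embryo, Tead4 acts with the coactivator Yap1 in outer cells, and Cdx2 and Gata3 are turned on there. Cdx2 opposes the stem cell factor Pou5f1, and Elf5, Eomes and Tfap2c then work in a circuit that keeps trophoblast stem cells dividing. Hand1 acts later, in trophoblast giant cells. Rhox6 and Rhox9 are X-linked homeobox genes of the reproductive homeobox cluster, known from placenta and germ cells. In embryonic stem cells these genes are mostly held at low levels, except Tfap2c, which is also used in naive stem cells and in primordial germ cells.

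The promoters of Cdx2 and Gata3 are shown because both genes sit at the point where the lineage is set and both differed between the genotypes below. They run from 250 bases before the gene start to 50 bases after it, on the strand of the gene, from RefSeq's table for GRCm38.p6. The table held promoters of 3 of the 8 genes, the other one being Elf5. Cdx2 lies at chr5:147307200-147307499 and Gata3 at chr2:9878551-9878850, both on the minus strand. Capitals mark the palindrome GCCNNNGGC, which AP-2 proteins such as Tfap2c bind.
Cdx2: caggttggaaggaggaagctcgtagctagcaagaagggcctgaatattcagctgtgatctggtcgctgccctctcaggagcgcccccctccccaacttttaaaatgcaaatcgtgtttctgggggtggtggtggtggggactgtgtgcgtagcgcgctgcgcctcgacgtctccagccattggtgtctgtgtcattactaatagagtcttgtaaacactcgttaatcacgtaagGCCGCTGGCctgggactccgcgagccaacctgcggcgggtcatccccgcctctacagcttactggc
Gata3: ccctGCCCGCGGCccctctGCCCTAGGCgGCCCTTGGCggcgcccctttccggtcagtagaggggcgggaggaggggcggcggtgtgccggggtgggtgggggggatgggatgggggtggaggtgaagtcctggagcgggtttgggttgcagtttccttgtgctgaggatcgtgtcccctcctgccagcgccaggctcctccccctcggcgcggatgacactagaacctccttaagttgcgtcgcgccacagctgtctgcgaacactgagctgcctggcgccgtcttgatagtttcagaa

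The Cdx2 window held 1 such match, starting at -16 from the gene start. The Gata3 window held 3, starting at -246, -231 and -221. Of 32851 mouse promoters of this length in the same table, 16.6% held at least 1 match. Both strands were also searched for the Tcf/Lef letters CTTTGA and CTTTGT, which 31.2% of promoters held, and for the Tead letters GGAATG, which 14.7% held. Neither printed window holds these letters. The windows of Elf5, which are not printed, held a Tcf/Lef match starting at -51 in 1 window and a Tead match starting at -173 in another. The windows are rich in G and C, at 57.3% for Cdx2 and 67.3% for Gata3, and a match is a description of the letters only.

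Single values are log2 of the deposited intensities. Each difference is one of group means on that scale, and its standard error (SE) comes from a limma fit over all 12 arrays. The comparisons share groups of arrays. Adjusted p-values are limma's with Benjamini-Hochberg adjustment over the 28483 probe sets tested, with 0.05 as the threshold. Probe sets were tested where 3 or more of the 12 arrays exceeded 5.56 (an intensity of 47.2), the 40th percentile of all values. That level is called the floor, since the files used here hold no detection calls, and a fold against a group with arrays under it is written as at least N-fold. The targeted gene was lower in the knockout, with the brighter Tcf7l1 probe set 1436207_at at 9.37 to 9.58 on knockout and 10.77 to 10.90 on wild-type arrays in control medium. With Wnt3a it read 8.89 to 9.22 on knockout and 10.21 to 10.50 on wild-type arrays. The second probe set, 1450117_at, was lower in the knockout by 3.47-fold with Wnt3a and by 3.39-fold without it. Neither came near the floor, and which exons were deleted is not stated in the labels.

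The 12 embryonic stem cell markers (Pou5f1, Sox2, Nanog and others) lay above the floor on all 12 arrays. Their summed intensity was 120673 to 124947 in knockout and 110351 to 116346 in wild-type cells with Wnt3a, and 115470 to 117462 in knockout and 90854 to 99294 in wild-type cells in control medium. Of all genes, each read from its brightest probe set, 40.5% passed for the knockout in control medium and 26.3% with Wnt3a. Of all probe sets tested, 18% passed as higher and 18.2% as lower in control medium, and 10.8% and 13.2% with Wnt3a. In control medium 7 of the 12 markers passed as higher in the knockout and 1 as lower, with a median difference of 0.31, and their part in the results below was not tested. With Wnt3a 3 passed as higher and 2 as lower; leaving out wild-type Wnt3a array 1 or 2 or knockout Wnt3a array 3 made these 0 and 1, and leaving out knockout Wnt3a array 2 made them 1 and 1. Spike-in transcripts added during sample preparation differed between the media: the dap probe sets averaged 11.07 to 11.33 on Wnt3a arrays and 4.04 to 4.15 on control-medium arrays. In every comparison of Wnt3a with control medium, the medium and the preparation of the samples cannot be told apart. The 3' minus 5' signal of actin, a measure of RNA quality, was 0.36 to 0.41 in the knockout and 0.24 to 0.27 in the wild type with Wnt3a. In control medium it was 0.31 to 0.41 in the knockout and 0.18 to 0.24 in the wild type, so it moved with genotype, and its part in the results below was not tested. The same measure for Gapdh averaged -0.06 in the knockout and -0.09 in the wild type with Wnt3a, and 0.02 in the knockout and 0.01 in the wild type in control medium. For Tfrc it averaged 1.2 in the knockout and 1.11 in the wild type with Wnt3a, and 1.42 in the knockout and 1.56 in the wild type in control medium, where the order of the means was the opposite. These are bulk cultures, in which fewer cells of a type and less RNA per cell cannot be told apart.

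In control medium, knockout cells had lower Cdx2, Rhox6 and Rhox9, and no member was called higher. Gata3 was also called lower, but its probe set passed the filter only through wild-type arrays. The filter thus leaned it towards a call of lower, and it is included in the counts that follow. Of the 14 member probe sets, 12 were tested; the other 2 are those of Elf5. Of the 12, 5 passed the test as lower, where 36.2% of all probe sets tested passed it, 18.2% as lower and 18% as higher. With Wnt3a, 8 of the 12 passed as lower and none as higher, where 24% of all passed, 13.2% as lower and 10.8% as higher. The 8 were the same 5 plus the 3 probe sets of Tfap2c. Counting probe sets whose knockout arrays all lay below the wild-type arrays gave 8 of the 12 in each medium, where 24.1% of all did so in control medium and 21% with Wnt3a. The median knockout difference over the 12 was -0.28 in control medium and -0.61 with Wnt3a, against medians of 0.03 and 0.00 over all probe sets tested.

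**Figure D1:**
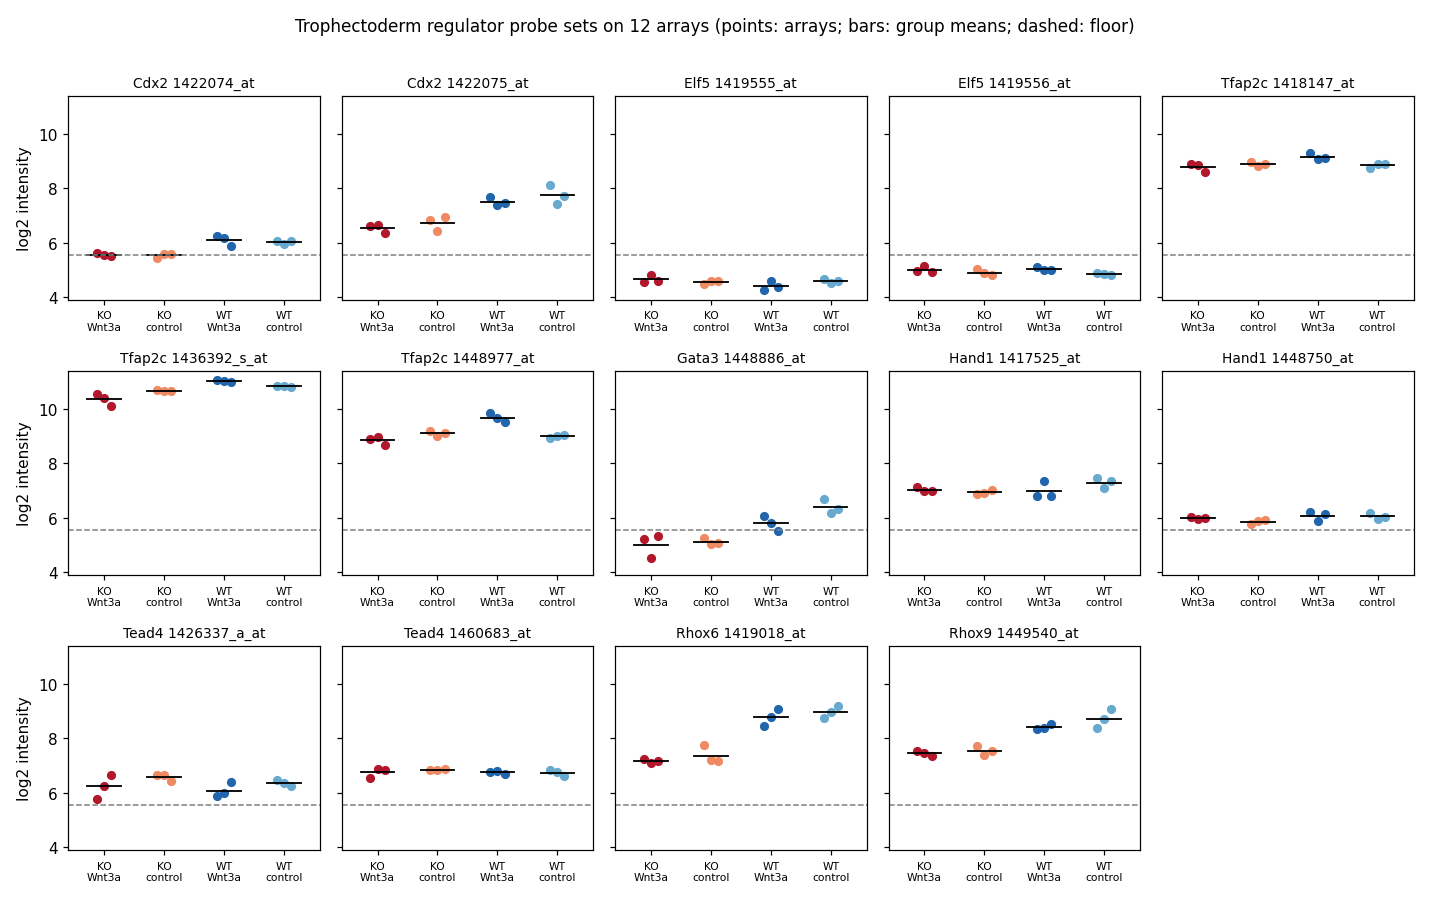
Log2 intensity of each member probe set on each of the 12 arrays, by group, with knockout groups left of wild-type groups and group means marked. The dashed line is the floor of 5.56; the Rhox6 and Rhox9 points of knockout cells lie wholly below those of wild-type cells in both media, while both Elf5 probe sets lie under the floor on all 12 arrays.

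Rhox6 had the largest fitted knockout difference among the members, where that of Gata3 is only a bound. It is a homeobox gene on chromosome X that is known from the placenta. Its probe set 1419018_at read 7.26, 7.09 and 7.18 in knockout cells with Wnt3a, against 8.46, 8.79 and 9.08 in wild-type cells with Wnt3a. In control medium it read 7.75, 7.20 and 7.16 in knockout cells, against 8.73, 8.95 and 9.17 in wild-type cells. The genotypes did not overlap in either medium, while the 2 media overlapped within each genotype.

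Rhox6 was 3.0-fold lower in knockout than in wild-type cells in control medium (log2 difference -1.58, SE 0.18, adjusted p = 2.49e-05). With Wnt3a it was 3.03-fold lower (-1.60, SE 0.18, adjusted p = 7.54e-05). The difference between these knockout effects was -0.01, with a 95% interval of -0.56 to 0.53 (adjusted p = 0.986). Wnt3a changed Rhox6 by -0.19 in knockout cells (adjusted p = 0.447) and by -0.18 in wild-type cells (adjusted p = 0.445), neither of which passed.

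Rhox9 lies 3 protein-coding genes past Rhox6 on chromosome X, and is its close relative in the cluster. Its probe set 1449540_at read 7.55, 7.46 and 7.34 in knockout cells with Wnt3a, against 8.36, 8.37 and 8.52 in wild-type cells with Wnt3a. In control medium it read 7.72, 7.38 and 7.55 in knockout cells, against 8.39, 8.69 and 9.06 in wild-type cells. Here too every knockout array lay below every wild-type array. Rhox9 was 2.24-fold lower in the knockout in control medium (-1.16, SE 0.14, adjusted p = 5.13e-05) and 1.95-fold when Wnt3a was present (-0.97, SE 0.14, adjusted p = 0.000526). Wnt3a did not pass in either genotype, with -0.10 in knockout cells (adjusted p = 0.627) and -0.30 in wild-type cells (adjusted p = 0.11). The wild-type difference passed when wild-type control array 1 was left out (-0.46, adjusted p = 0.0149).

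The 2 genes varied together, with a Pearson correlation of 0.973 over the 12 arrays. Within genotype it was 0.793 over the 6 knockout arrays and 0.777 over the 6 wild-type arrays. The values share arrays and normalisation, so these are descriptions. The probe letters were not used here, so reads of similar Rhox transcripts by either probe set were not checked.

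Other genes of the cluster did not share the direction. Of 30 other Rhox symbols, 2 had a probe set of their own, Rhox5 and Rhox13, and both were higher in the knockout. Rhox5, which sits next to Rhox6 among protein-coding genes on the chromosome, was 1.81-fold higher in control medium (0.85, adjusted p = 0.000795). With Wnt3a it was 1.48-fold higher (0.57, adjusted p = 0.0174), and this did not pass without wild-type Wnt3a array 1 (0.0616) or knockout Wnt3a array 2 (0.0528). Rhox13 was 1.35-fold higher in control medium (0.43, adjusted p = 0.0276) and 1.48-fold higher with Wnt3a (0.56, adjusted p = 0.0112). The first of these Rhox13 calls did not pass without wild-type control array 1 (0.122) or 3 (0.0822) or knockout control array 1 (0.0911) or 2 (0.0572), and the second without knockout Wnt3a array 2 (0.0501).

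Cdx2, the caudal-type homeobox factor that specifies trophectoderm, had 2 probe sets. The brighter, 1422075_at, read 6.60, 6.65 and 6.34 in knockout cells with Wnt3a, against 7.68, 7.38 and 7.45 in wild-type cells with Wnt3a. In control medium it read 6.83, 6.43 and 6.94 in knockout cells, against 8.10, 7.43 and 7.70 in wild-type cells. All 12 arrays lay above the floor. The genotypes did not overlap, while the media did within each genotype. This probe set was 2.02-fold lower in the knockout in control medium (-1.01, SE 0.17, adjusted p = 0.000542), and 1.97-fold when Wnt3a was present (-0.98, SE 0.17, adjusted p = 0.00154).

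The second Cdx2 probe set, 1422074_at, was dimmer, with 9 of 12 arrays above the floor. In knockout cells 1 of 3 arrays with Wnt3a and 2 of 3 in control medium lay above it, as did all 6 wild-type arrays. It read 5.51 to 5.61 in knockout and 5.88 to 6.25 in wild-type cells with Wnt3a, and 5.43 to 5.58 in knockout and 5.95 to 6.07 in wild-type cells in control medium. That made it at least 1.43-fold lower in the knockout with Wnt3a (adjusted p = 0.00118) and at least 1.37-fold lower in control medium (adjusted p = 0.000917). Both probe sets of Cdx2 thus gave the same direction. Neither passed for Wnt3a in either genotype, and the brighter one differed by -0.21 in knockout cells (95% interval -0.58 to 0.16) and by -0.24 in wild-type cells (-0.61 to 0.13).

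Of the other caudal-type genes, Cdx1, known as a direct Wnt target, was 2.53-fold higher in the knockout in control medium (1.34, adjusted p = 0.000795). With Wnt3a its knockout difference was 0.43 (adjusted p = 0.218), which did not pass. Wnt3a raised it 3.92-fold in knockout cells (1.97, adjusted p = 0.000141) and 7.38-fold in wild-type cells (2.88, adjusted p = 3.75e-06). Cdx4 lay under the floor on all 12 arrays.

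Gata3, a zinc-finger factor that acts beside Cdx2, was near background. Its single probe set 1448886_at lay above the floor on 5 of 12 arrays, all of them wild type. It read 5.21, 4.51 and 5.33 in knockout cells with Wnt3a, against 6.05, 5.81 and 5.51 in wild-type cells with Wnt3a. In control medium it read 5.24, 5.04 and 5.06 in knockout cells, against 6.69, 6.18 and 6.33 in wild-type cells. Knockout values therefore give only an upper bound.

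Gata3 was at least 1.80-fold lower in the knockout in control medium (fitted difference -1.29, SE 0.20, adjusted p = 0.000332). With Wnt3a it was at least 1.17-fold lower (fitted -0.78, SE 0.20, adjusted p = 0.0158). The Wnt3a-medium call did not pass when only the 6 arrays compared were fitted (0.0597), or without wild-type Wnt3a array 1 (0.0645) or knockout Wnt3a array 2 (0.0512). Within wild-type cells Gata3 was at least 1.51-fold lower with Wnt3a than in control medium (fitted -0.61, SE 0.20, adjusted p = 0.0283). That call was lost with repeated quantile normalisation (0.0558) and without wild-type control array 1 (0.114) or 3 (0.055) or wild-type Wnt3a array 2 (0.0612) or 3 (0.107). In knockout cells all 6 arrays lay under the floor, so their response of Gata3 to Wnt3a was not measured and is not set against that of wild-type cells.

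Of the other Gata genes, Gata2, which acts with Gata3 in trophoblast, was well above the floor. It was 1.85-fold lower in the knockout in control medium (-0.89, adjusted p = 3.31e-05) and 1.43-fold lower when Wnt3a was given (-0.52, adjusted p = 0.00353). Gata1, Gata4 and Gata6, also above the floor, did not pass between genotypes in either medium. Their differences in control medium were positive: 0.09 (adjusted p = 0.368), 0.37 (0.183) and 0.77 (0.061).

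Tfap2c, which encodes the transcription factor AP-2 gamma, was the member whose response to Wnt3a depended on genotype. Its probe set 1448977_at read 8.90, 8.95 and 8.68 in knockout cells with Wnt3a, against 9.18, 9.01 and 9.10 in knockout cells in control medium. In wild-type cells it read 9.84, 9.67 and 9.51 with Wnt3a, against 8.91, 9.01 and 9.04 in control medium. Wild-type arrays with Wnt3a stood above all 9 others, while the control-medium arrays of the genotypes overlapped.

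On that probe set Tfap2c rose 1.61-fold with Wnt3a in wild-type cells (0.68, SE 0.10, adjusted p = 0.000182). In knockout cells the Wnt3a difference was -0.25 (SE 0.10, adjusted p = 0.0641), which passed with repeated quantile normalisation (0.0454) and without wild-type Wnt3a array 1 (0.0428) or 3 (0.0451). The difference between these effects was -0.94 (SE 0.14, adjusted p = 0.00664). Of all probe sets tested, 3.58% passed this test of the difference, 1021 in number. That number was 1663 without wild-type Wnt3a array 1 and fell to 242 without wild-type control array 3. It was also more than 1.5 times lower without array 1 (351) or 3 (408) of the knockout in control medium, wild-type control array 1 (366), wild-type Wnt3a array 2 (365) or 3 (409), or knockout Wnt3a array 2 (395) or 3 (679).

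The brightest Tfap2c probe set, 1436392_s_at, gave a smaller difference of the same sign. It read 10.53, 10.39 and 10.11 in knockout cells with Wnt3a, against 10.69, 10.66 and 10.64 in knockout cells in control medium. In wild-type cells it read 11.05, 11.01 and 10.98 with Wnt3a, against 10.83, 10.83 and 10.81 in control medium. Neither genotype overlapped between media, with knockout arrays lower and wild-type arrays higher with Wnt3a.

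The Wnt3a difference of 1436392_s_at was -0.32 in knockout cells (SE 0.09, adjusted p = 0.0169), which did not pass when only the arrays compared were fitted (0.0576). In wild-type cells it was 0.19 (SE 0.09, adjusted p = 0.0984), which passed with arrays centred on their medians (0.0256), with only the arrays compared (0.0388) and without knockout Wnt3a array 1 (0.0492) or 3 (0.0232). The genotype difference in response was -0.51 (SE 0.13, adjusted p = 0.0457). That call was lost with no filter (0.0558), with repeated quantile normalisation (0.0603), with replicate number as a block (0.0503), and without any 1 of 10 arrays (0.0554 to 0.109); among single arrays left out, it held without knockout Wnt3a array 1 or 3.

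The third, 1418147_at, read 8.87, 8.84 and 8.60 in knockout cells with Wnt3a, against 8.94, 8.81 and 8.88 in knockout cells in control medium. In wild-type cells it read 9.30, 9.08 and 9.08 with Wnt3a, against 8.74, 8.89 and 8.90 in control medium. It rose with Wnt3a in wild-type cells (0.31, SE 0.09, adjusted p = 0.0162), a call lost without wild-type control array 1 (0.0646) or wild-type Wnt3a array 1 (0.0636). Its genotype difference in response was -0.42 (SE 0.13, adjusted p = 0.0943), which did not pass.

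Between genotypes, all 3 Tfap2c probe sets passed as lower with Wnt3a present. Knockout cells were 1.78-fold lower on 1448977_at (-0.83, SE 0.10, adjusted p = 0.000108), 1.59-fold lower on 1436392_s_at (-0.67, SE 0.09, adjusted p = 0.000246) and lower by a log2 difference of -0.39 on 1418147_at (SE 0.09, adjusted p = 0.0093). In control medium the differences were 0.11, -0.16 and 0.03 on the same probe sets, and none passed (adjusted p = 0.434, 0.201 and 0.833).

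**Figure D2:**
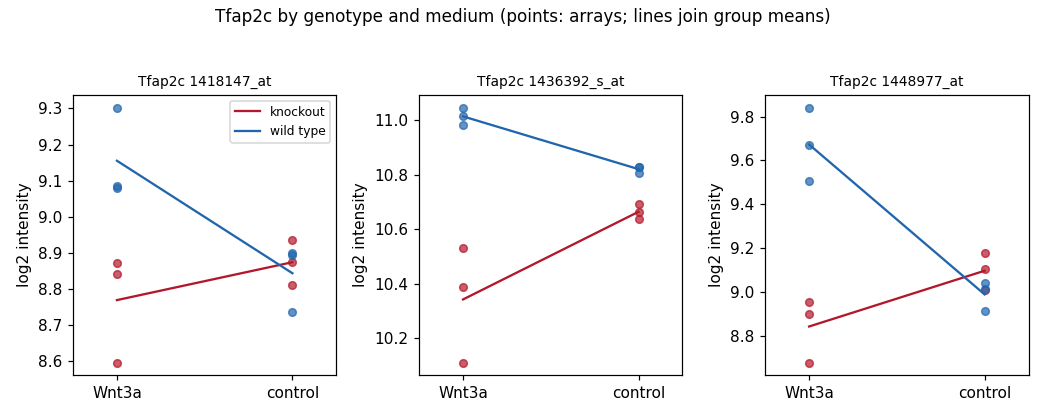
Log2 intensity of the 3 Tfap2c probe sets on each array, with Wnt3a left of control medium for knockout and for wild-type cells. Wild-type values with Wnt3a are the highest of the 4 groups on each probe set, and knockout values with Wnt3a average the lowest.

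Elf5, an Ets-family factor of trophoblast stem cells, was not detected above the floor. Its probe set 1419555_at ranged from 4.24 to 4.81 and 1419556_at from 4.79 to 5.14 over the 12 arrays. Both stayed out of the test, and no fold is given. The groups are therefore not ordered for this gene.

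Hand1, a basic helix-loop-helix factor of giant cells, was low and did not pass in any of the comparisons. The brighter probe set, 1417525_at, read 7.12, 6.98 and 6.97 in knockout cells with Wnt3a, against 6.78, 7.33 and 6.80 in wild-type cells with Wnt3a. In control medium it read 6.86, 6.91 and 7.02 in knockout cells, against 7.45, 7.07 and 7.34 in wild-type cells. The genotypes overlapped with Wnt3a and not in control medium.

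Its knockout difference in control medium was -0.36 (SE 0.14, 95% interval -0.66 to -0.06, adjusted p = 0.0578). This passed with only the arrays compared (0.0225), with an intensity trend and robust prior (0.0483), and without wild-type control array 2 (0.0257) or wild-type Wnt3a array 1 (0.0494) or 2 (0.0118). With Wnt3a the knockout difference was 0.05 (-0.24 to 0.35, adjusted p = 0.822). Its Wnt3a difference in wild-type cells was -0.32 (adjusted p = 0.0808), which passed without wild-type control array 2 (0.0364) or wild-type Wnt3a array 2 (0.00462). The other Hand1 probe set, 1448750_at, ranged from 5.77 to 6.20, just above the floor, and differed by -0.19 between the genotypes in control medium (SE 0.09, adjusted p = 0.12).

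Tead4, the DNA-binding partner of Yap1, did not differ beyond the spread between arrays. Probe set 1460683_at ranged from 6.53 to 6.87 in knockout and from 6.69 to 6.81 in wild-type cells with Wnt3a, and from 6.82 to 6.88 in knockout and 6.61 to 6.85 in wild-type cells in control medium. The knockout difference was 0.11 in control medium (95% interval -0.10 to 0.31) and 0.00 with Wnt3a (-0.21 to 0.20). Probe set 1426337_a_at was more variable, from 5.76 to 6.67, and gave 0.21 in control medium (-0.20 to 0.62) and 0.15 with Wnt3a (-0.26 to 0.56). On this probe set the Wnt3a difference in knockout cells was -0.34 (adjusted p = 0.193), and -0.56 without knockout Wnt3a array 3 (adjusted p = 0.0294). These intervals still allow moderate differences in either direction.

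Counted over the members, 1 of the 12 probe sets passed for Wnt3a in knockout cells (Tfap2c, lower), where 30.9% of all probe sets did and 16% as lower; leaving out wild-type Wnt3a array 1 or 3 or knockout Wnt3a array 3 made it 2. In wild-type cells 3 passed, 2 of Tfap2c higher and that of Gata3 lower, where 42.5% of all did, 20.8% as higher and 21.7% as lower. The test of the difference between genotypes called 2 as lower, both of Tfap2c, where 2% of all passed as lower, and 1 when any 1 of the 10 arrays above was left out.

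**Figure D3:**
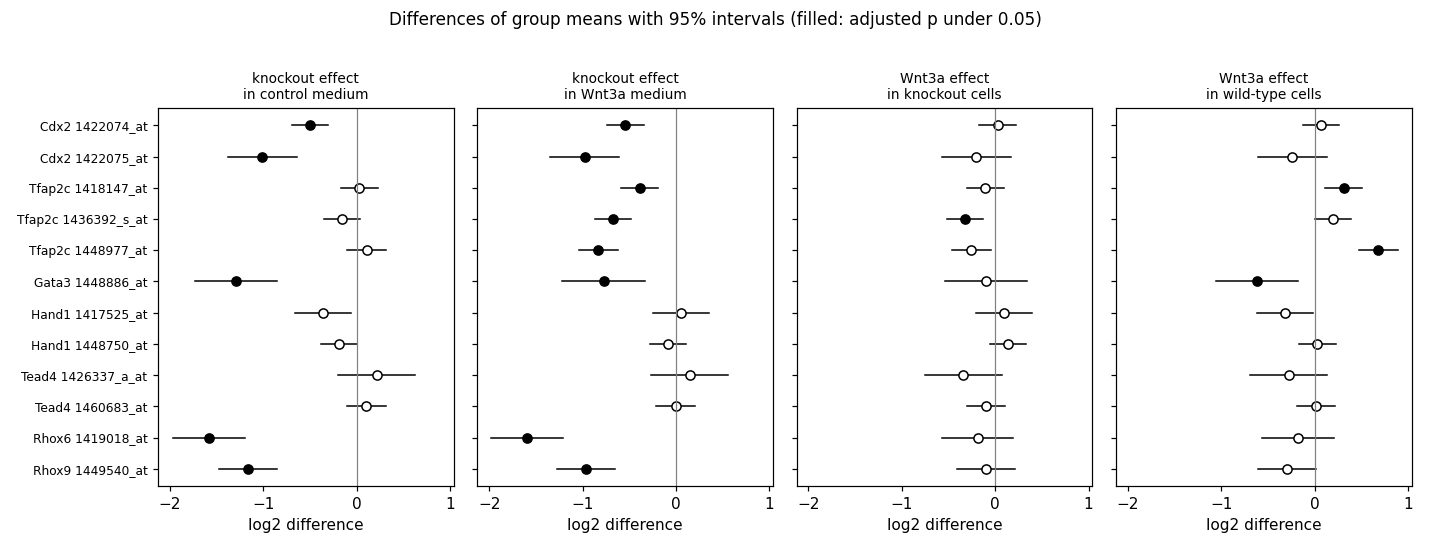
Log2 differences of the 12 tested member probe sets, one panel per pairwise comparison, with 95% intervals from the limma fit; filled points have an adjusted p under 0.05. In both knockout panels the filled points lie left of 0, and the fitted value of Rhox6 lies farthest left, at -1.58 in control medium and -1.60 with Wnt3a.

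The remaining comparison is with lists of related genes, each gene read from its brightest probe set. Of all 13811 genes tested this way, 40.5% passed for the knockout in control medium and 26.3% with Wnt3a. In the list of Tead cofactors, Hippo pathway genes and Tead targets, 15 of 16 genes were tested, and 12 fell in the knockout in control medium. Amot, which holds Yap1 out of the nucleus, fell 5.15-fold (adjusted p = 0.000113), its relative Amotl1 4.27-fold (2.57e-07) and the Yap1 target Ccn1 4.81-fold (6.33e-06). In the same comparison 1 gene passed as higher, a count that fell to 0 without any 1 of the wild-type control arrays, without array 1 or 3 of the knockout in control medium, without wild-type Wnt3a array 2 or 3 or without knockout Wnt3a array 2, and was 2 without knockout control array 2; it ran from 0 to 2 over the other alternatives too. With Wnt3a 8 fell and none passed as higher, and the 8 became 5 when only the arrays compared were fitted. The median difference of the 15 was -0.36 in control medium and -0.24 with Wnt3a, where that of all genes was 0.01 in each. With Wnt3a, Ccn1 was 4.49-fold lower (3.00e-05), Amot 2.88-fold (0.00488) and Ccn2 2.77-fold (3.82e-05).

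Among 19 further trophoblast regulators, 17 were tested, and 7 fell in the knockout in control medium while 8 fell with Wnt3a. Id2, an inhibitor of basic helix-loop-helix proteins that is enriched in trophectoderm, was 7.31-fold lower in control medium (adjusted p = 7.84e-07) and 6.15-fold lower when Wnt3a was given (5.45e-06). Mbnl3, an X-linked RNA-binding gene, was 2.90-fold lower in control medium (7.77e-07) and 2.17-fold lower when Wnt3a was given (2.72e-05). The homeobox gene Msx2 was 1.78-fold lower with Wnt3a (0.0142). In each medium 2 of the 17 passed as higher, and they are named here after their values were seen. Both media had Grhl3, with Sbno1 beside it in control medium and Eomes with Wnt3a. Eomes, the partner of Elf5 and Tfap2c in trophoblast stem cells, was 1.61-fold higher in the knockout with Wnt3a (0.68, adjusted p = 0.0347), and its difference in control medium was 0.40 (adjusted p = 0.173). In control medium the count of 2 fell to 0 with no filter on low values, with replicate number as a block, and without wild-type control array 1 or 3 or knockout control array 1 or 2, and to 1 without knockout control array 3, wild-type Wnt3a array 2 or knockout Wnt3a array 2. With Wnt3a it fell to 0 without wild-type Wnt3a array 2 or knockout Wnt3a array 2 or 3, and to 1 without wild-type Wnt3a array 1 or 3. The median difference of the 17 was -0.08 in control medium and -0.21 with Wnt3a, where the median of all genes was 0.01 in each.

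Of 28 trophoblast products, 22 were tested; 13 fell and 4 rose in the knockout in control medium, and 11 fell and 3 rose with Wnt3a. The median of the 22 was -0.62 in control medium and -0.47 with Wnt3a. Their largest falls were those of the simple keratins Krt18 (29.3-fold in control medium, adjusted p = 4.84e-08), Krt8 (21.6-fold, 5.01e-08) and Krt19 (21.4-fold, 3.04e-07), which epithelia besides trophectoderm also make. The 4 that rose in control medium are named after their values were seen. They were Lgals3 (2.28-fold, adjusted p = 9.66e-06), Gjb5 (2.11-fold, 0.000305), Aqp3 (1.53-fold, 0.00322) and Spint1 (1.3-fold, 0.0044). The 3 that rose with Wnt3a were these without Aqp3. The summed intensity of the list was 13448 to 15323 in knockout and 30664 to 36145 in wild-type cells with Wnt3a, and 17519 to 18389 in knockout and 40509 to 57764 in wild-type cells in control medium. Krt8 and Krt18 were the brightest of the list in wild-type cells, so they weigh most in those sums. In control medium they averaged 13.66 and 13.55 on the log2 scale in wild-type cells. Their knockout means there were 9.22 and 8.68. Tpbpa, a marker of the spongiotrophoblast, lay under the floor on all 12 arrays. In wild-type cells Wnt3a lowered 13 of the 22 and raised 2, with Cldn6 (2.24-fold lower, 0.00496), Cldn4 (2.05-fold, 0.00488) and Plet1 (1.98-fold, 0.0167) falling most; the Plet1 call was lost without wild-type control array 2 (0.0632) or wild-type Wnt3a array 1 (0.0567) or 2 (0.0541). In that comparison 41.1% of all genes passed.

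Genes that hold the trophoblast programme down in stem cells, such as Pou5f1, Nanog and chromatin repressors, rose more often than they fell in control medium. Of 17 tested, 10 were higher in the knockout and 1 was lower. In that comparison 40.5% of all genes passed in either direction, and of all probe sets tested 18% passed as higher and 18.2% as lower. Pou5f1, Sox2, Nanog and Sall4 are also among the stem cell markers above, so the lists are not separate observations. Nanog was 1.99-fold higher (adjusted p = 1.34e-06) and Eed, a Polycomb subunit, 1.35-fold (0.000694), while the DNA methyltransferase Dnmt3b was 1.79-fold lower (1.54e-05). With Wnt3a 2 were higher and 2 lower, or 23.5% of the list, near the 26.3% of all genes that passed. The median of the 17 was 0.27 in control medium and 0.04 with Wnt3a. The higher count fell to 0 without wild-type Wnt3a array 1 or 2 or knockout Wnt3a array 2 or 3, and the lower count to 1 without the same arrays. Among 17 paralogs of the members 10 were tested, of which 2 rose and 4 fell in the knockout in control medium, and 4 rose without knockout control array 1; their median was 0.02. Tead1 was the third largest change among those that passed, at 1.58-fold lower (0.000149).

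Some markers of other cell types also differed, and their part in the results was not tested. For the knockout in control medium, 3 of 11 primitive endoderm markers tested were higher. They were Cubn (4.6-fold, adjusted p = 0.0112), Lama1 (2.6-fold, 0.00978) and Pdgfra (2.1-fold, 0.0243). The Pdgfra call was lost under 6 of 21 alternatives. Of 8 mesoderm markers 1 was lower, and of 8 fibroblast markers 2 were higher and 4 lower. With Wnt3a no primitive endoderm or mesoderm marker passed, and 1 fibroblast marker was higher and 3 lower. Of all genes, 40.5% passed in control medium and 26.3% with Wnt3a. Primitive endoderm counts varied over the alternatives, up to 8 in control medium and 5 with Wnt3a. In control medium the median knockout difference was 0.64 for primitive endoderm, -0.09 for mesoderm and -0.41 for fibroblast markers. With Wnt3a these medians were 0.35, -0.25 and -0.18, where that of all genes was 0.01 in each medium. Of 12 primitive endoderm markers, 9 lay above the floor on all arrays, with Afp under it throughout. Their summed intensity was 4056 to 4854 in knockout and 3074 to 4178 in wild-type cells with Wnt3a, and 1568 to 6740 in knockout and 2082 to 2900 in wild-type cells in control medium. Of 11 matched mesoderm markers, 7 lay above the floor on all arrays and Tbx6 and Wnt3 on none, with sums of 2361 to 2485 in knockout and 2560 to 3348 in wild-type cells with Wnt3a, and 2236 to 2825 in knockout and 2142 to 2255 in wild-type cells in control medium. Of 12 fibroblast markers, 5 were above the floor on all arrays and Col3a1, Lum, Prrx1 and Fap on none. Their sums were 629 to 648 in knockout and 689 to 699 in wild-type cells with Wnt3a, and 705 to 732 in knockout and 744 to 869 in wild-type cells in control medium.

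The genes whose values followed each member most closely were ranked by Pearson correlation with its brightest probe set, over the 12 arrays and among 13043 genes. For Cdx2 they were Septin11 (0.976), Tceal8 (0.975) and Dact3 (0.972). For Gata3 they were Tmem63a (0.975), Mfhas1 (0.971) and Fgd2 (0.967). Gata3 lay above the floor on only 5 of the 12 arrays, so these 3 values rest largely on readings under it. Rhox6 was followed by Epha2 (0.974), its neighbour Rhox9 (0.973) and Irx3 (0.966), and Rhox9 by Rhox6, Pabpn1 (0.971) and Irx3 (0.964). For Tfap2c the closest was Dppa3 (0.945), a germ cell and naive stem cell gene, then Bicc1 (0.937) and Prkch (0.932). The members that did not pass had lower values, up to 0.863 for Hand1 with Otud7a and up to 0.786 for Tead4 with Ufsp1. All of these correlations rest on the same 4 groups of arrays and are given with no test.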

How the data were processed

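Total RNA from 12 mouse embryonic stem cell samples was measured on arrays. The authors deposited 1 table of intensity values, on a linear scale, for 45101 probe sets, made with RMA per the submitters' processing notes; no version or further setting is stated. Values were turned to log2 with no pseudocount. Of the probe sets, 64 were controls, 932 carried several symbols and 9160 were not listed in the platform annotation. Of 18195 Entrez identifiers, 18033 matched RefSeq.

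The fit used limma 3.58.1 (R 4.3.3) over 28483 probe sets and 5 comparisons, after the filter on low values; the number of arrays limits the precision. In simulated data for the knockout effect in control medium over 28483 probe sets, 60 of 100 probe sets changed by 0.5 (log2) and 94 of 100 changed by 1 were called. Of the unchanged probe sets 7 were called. No other probe sets were changed there, while 10308 were called in the data, so these rates do not measure the power of the real test. The alternatives covered the filter, scaling, an offset of 50, the variance prior, the arrays fitted, a replicate block, 1 probe set per gene and each array left out. The text names all members, up to 3 called genes with the largest change per list and comparison, and the 3 genes most like each member; some of these are left out. Genes called higher in the knockout among the trophoblast regulators and products are named as well. Members and lists were chosen with earlier results of these data known.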

Additional observations from a re-analysis of the deposited data

Results flagged for a closer look

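The response of Tfap2c to Wnt3a differed between knockout and wild-type cells on 2 of its 3 probe sets by the test of the difference itself. Subtracting the wild-type response from the knockout response gave -0.94 on the log2 scale for 1448977_at (adjusted p = 0.00664) and -0.51 for 1436392_s_at (adjusted p = 0.0457). The call on 1436392_s_at was fragile. It was lost with no filter, with repeated quantile normalisation, with the replicate block and without most single arrays, as given above. On the remaining probe set, 1418147_at, the difference in response was -0.42 (adjusted p = 0.0943). All 3 had the same sign. No test of single outlying arrays was made, since each group held 3.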

How the results depend on the processing

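Over 60 comparisons of member probe sets, 19 passed, and 14 of these passed under all alternatives run (up to 21 each). Of 41 that did not pass, 35 stayed so. No passed value changed sign. With 1 probe set per gene, the counts over all features were 5824, 3863, 3872, 5733 and 563 for the knockout in control medium, the knockout with Wnt3a, Wnt3a in knockout cells, Wnt3a in wild-type cells and the genotype difference in response, against 10308, 6833, 8795, 12116 and 1021; fewer features were tested. Members passing were then 5 instead of 8 for the knockout with Wnt3a, 1 instead of 3 for Wnt3a in wild-type cells, and 1 instead of 2 for the difference in response. For Wnt3a in knockout cells, 2 members passed with repeated quantile normalisation and 0 with only the arrays compared, instead of 1; with single arrays left out, 1 to 2. For the difference in response, 1 member passed with no filter, with repeated quantile normalisation and with the replicate block; with single arrays left out, 1 to 2 members and 242 to 1663 probe sets passed. The cause was not tested.

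Same-numbered arrays showed little shared deviation: over 18 pairs, r ran from -0.254 to 0.235, with 3 above 0.1, and 7 matched their own number best. With so few arrays per group this check cannot show whether the numbers are a pairing, and the labels do not say. With replicate number as a block, 5 members passed for the knockout in control medium, 8 with Wnt3a, 1 for Wnt3a in knockout cells and 3 in wild-type cells, as without it. Signal near the floor limits Gata3, Elf5 and the dimmer Cdx2 probe set.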
